A study of Rattus norvegicus with 8 samples.

Results

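The integrin and tetraspanin genes are 45 of the 32883 rows of a deposited RNA-seq table. They were taken by symbol alone: integrin subunit genes named Itga or Itgb with a number (20 genes with Itgav), tetraspanin genes named Tspan with a number (20 genes), and the tetraspanins Cd9, Cd63, Cd81, Cd82 and Cd151 (5 genes). Expression was measured in primary oligodendrocyte precursor cells (OPCs) of Sprague Dawley rats in 2 groups, 4 cultures from male and 4 from female animals. Every culture was started as mixed glia from the cerebral cortex of pups 1 to 2 days old, in medium with 20% serum. The OPCs were taken as the cells that did not adhere and were grown for 4 to 5 days in Neurobasal medium with B27 supplement and with PDGF and FGF, each at 10 ng/ml. No further treatment or allele is given, and nothing in the labels ties a culture to a litter or says whether pups were pooled, so the p-values rest on the variation among the 8 samples, whose source may be technical. The male libraries are called male 1 to male 4 and the female ones female 1 to female 4.

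Integrins are receptors for the extracellular matrix made of an alpha and a beta subunit. Oligodendrocyte lineage cells are known for receptors that pair the alpha v subunit with several beta subunits, and for a laminin receptor that pairs alpha 6 with beta 1. Tetraspanins are small proteins that cross the membrane repeatedly and gather integrins, proteases and other receptors into membrane microdomains. Cd9 and Tspan2 are known in this lineage as genes that come on as precursors mature, and Tspan3 was found in a complex with claudin 11 and beta 1 integrin in oligodendrocytes.

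Levels are FPKM, fragments per transcript length and library size, so genes can be set side by side per length. Steps between low values gave the relative depth of the libraries, which was 0.553 to 1 in the male and 0.303 to 0.981 in the female ones, with absolute depth unknown. The libraries male 1 and female 3 deviated from the means of their groups in the same way (Pearson r = 0.342 across 8390 genes, which are not independent replicates). This was the highest r among all pairings of a male with a female library. Male 1 and female 3 also had the highest relative depth of their groups (1 and 0.9812). Results that rest on them are given with and without both, a choice made from these same data. Over all genes, 680 of 11263 tested genes (6.04%) differed between the sexes, 354 (3.14%) with the male and 326 (2.89%) with the female mean on top (limma-trend, adjusted p under 0.05). After rescaling every library to the same total (TPM) the split was 768 and 186. Markers of OPCs summed to 2061 to 2194 FPKM in male and 2501 to 2758 FPKM in female cultures, with 4 of 8 tested markers called as higher in female ones. Microglial markers summed to 42.2 to 61.5 FPKM in male and 165 to 203 FPKM in female cultures, with 9 of 12 tested markers called as higher in female ones. Of the tested ones, Cx3cr1 (called), P2ry12 and Trem2 reached the mean of 1 FPKM needed for testing only through their female values. Neuronal markers summed to 197 to 219.5 FPKM in male and 174 to 193 FPKM in female cultures, with 4 of 8 tested markers called as higher in male cultures and Slc17a7 listed at 0 throughout. Astrocyte markers summed to 198 to 217 FPKM in male and 194 to 214 FPKM in female cultures, with none of 6 tested called. Their 2 most abundant genes lay in opposite directions. Slc1a3 averaged 86.8 FPKM in male and 73.95 FPKM in female cultures, and Aldoc 88.7 FPKM in male and 102.1 FPKM in female ones. Endothelial markers summed to at most 0.678 FPKM in any library, and the fibroblast markers Col1a2, Col3a1 and Dcn were listed at 0 in all 8. Pericyte and fibroblast markers together summed to at most 2.79 FPKM in any library. Among them Acta2 averaged 1.46 FPKM in male and 0.252 FPKM in female cultures.

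Of the 45 genes 23 had a mean of at least 1 FPKM and were tested, 5 of the 20 integrins and 18 of the 25 tetraspanins. A further 15 were above 0 in at least 1 library with a mean under 1 FPKM, and 7 were listed at 0 in all 8 libraries. Of the 9 members with a mean of at least 100 FPKM 7 were tetraspanin genes and 2 were integrin genes. All 45 genes together summed to 2318 to 2350 FPKM in male and 2386 to 2473 FPKM in female cultures. These sums were not rescaled to the total FPKM of each library. The totals were 648382.6 to 705322.3 FPKM in male and 675851.5 to 773918.5 FPKM in female cultures.

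**Figure D1:**
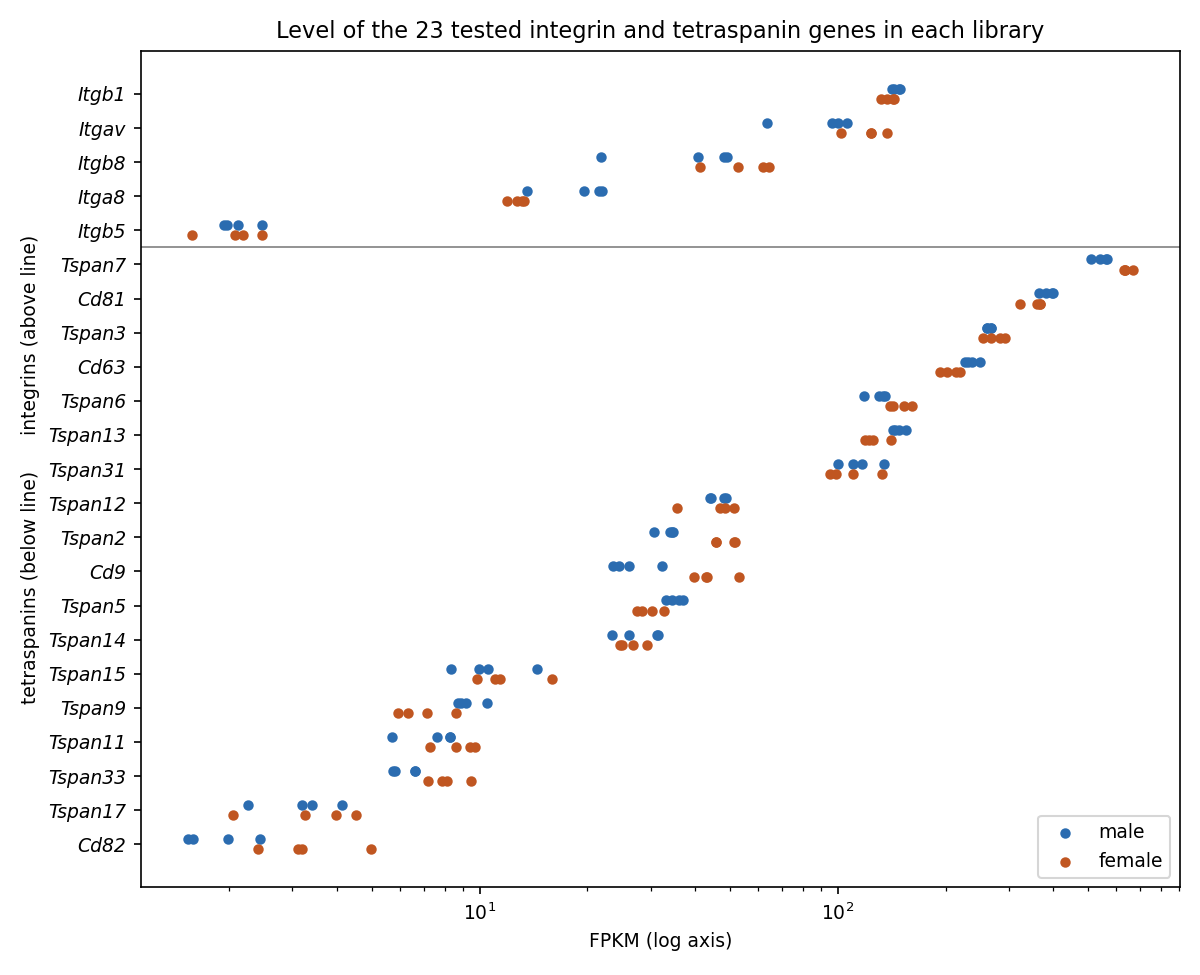
FPKM of the 23 tested genes on a log axis, integrins above the grey line and tetraspanins below it, with each point a library and male libraries plotted above female ones. Values run from 1.53 FPKM for Cd82 in male 4 to 666 FPKM for Tspan7 in female 3.

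Among the 23 tested genes 3 differed between the sexes, all tetraspanins and all lower in male cultures: Cd9, Tspan2 and Tspan7. No member was called as higher in male cultures and no integrin was called. This is 13.0% of the members tested, beside 6.04% over all genes. The median log2 difference, male minus female, was -0.05 over the members and -0.0038 over all tested genes. Male and female values did not overlap for 10 of the 23 (43.5%), beside 14.0% over all tested genes. On the male side lay 5 of them (7.26% of all tested genes did) and on the female side the other 5 (6.77%). An unadjusted p under 0.05 was given for 12 of the 23 members and for 2393 of the 11263 genes.

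**Figure D2:**
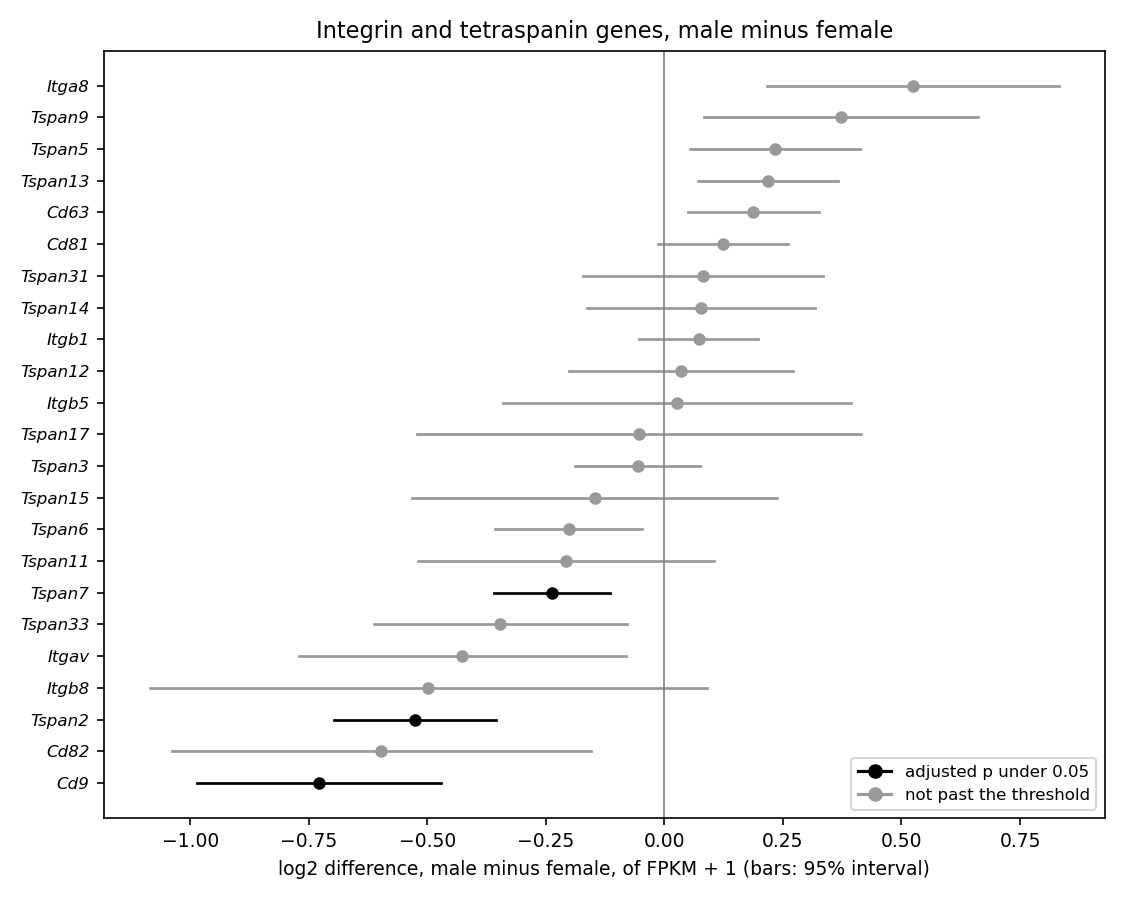
Log2 difference, male minus female, of FPKM + 1 for the 23 tested genes, with its 95% interval, in black where the adjusted p is under 0.05. Cd9, Tspan2 and Tspan7 are the 3 black points, all left of 0, and Itga8 lies farthest to the right.

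Cd9 (ENSRNOG00000019556), a tetraspanin that associates with beta 1 integrins, stood at 32.3, 23.6, 26.1 and 24.4 FPKM in male cultures 1 to 4, against 53.1, 39.7, 43.1 and 42.8 FPKM in female cultures 1 to 4. All male values lay below all female ones, and male 1 and female 1 were the highest of their groups. The means were 26.6 ± 3.95 in male and 44.7 ± 5.81 FPKM in female cultures (SD, n = 4 each), a log2 difference of -0.73 ± 0.12 (SE; 95% interval -0.99 to -0.47; limma-trend adjusted p = 0.00606). The call held in each of 18 alternative analyses, with adjusted p from 0.00238 to 0.0245.

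Tspan2 (ENSRNOG00000023338), a tetraspanin enriched in oligodendrocytes, stood at 34.5, 34.6, 34.0 and 30.6 FPKM in male cultures 1 to 4, against 51.3, 45.8, 45.8 and 51.6 FPKM in female cultures 1 to 4. The groups were apart, with male 4 the lowest library. Means were 33.5 ± 1.89 FPKM in male and 48.6 ± 3.27 FPKM in female cultures (SD, n = 4 each), with a log2 difference of -0.53 ± 0.08 (SE; 95% interval -0.70 to -0.36; limma-trend adjusted p = 0.00424). Its adjusted p was 0.00283 to 0.0236 in the same 18 alternatives.

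Tspan7 (ENSRNOG00000003229) was the most abundant gene of both families, at rank 143 of all genes by mean FPKM. It is X-linked in the RefSeq table of assembly GRCr8. It stood at 564.8, 510.3, 538.8 and 562.8 FPKM in male cultures 1 to 4, against 633, 633, 666 and 632 FPKM in female cultures 1 to 4. The groups did not overlap, but the difference was small, with means of 544 ± 25.5 in male and 641 ± 16.6 FPKM in female cultures (SD, n = 4 each; log2 difference -0.24 ± 0.06, SE; 95% interval -0.36 to -0.11; limma-trend adjusted p = 0.0310). Leaving out 1 library ended the call for each library other than male 1 and female 3 (adjusted p 0.0590 to 0.112), as did rescaling to TPM (adjusted p = 0.0869). The other X-linked member, Tspan6, stood at 130 ± 7.88 FPKM in male and 149 ± 9.87 FPKM in female cultures (SD, n = 4 each), with no overlap, and was not called (log2 difference -0.20, 95% interval -0.36 to -0.05, limma-trend adjusted p = 0.123). Of 328 X-linked genes tested 21 (6.40%) were called, and 46 (14.0%) had no overlap. Of those called, 11 (3.35%) had the male and 10 (3.05%) the female mean on top.

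**Figure D3:**
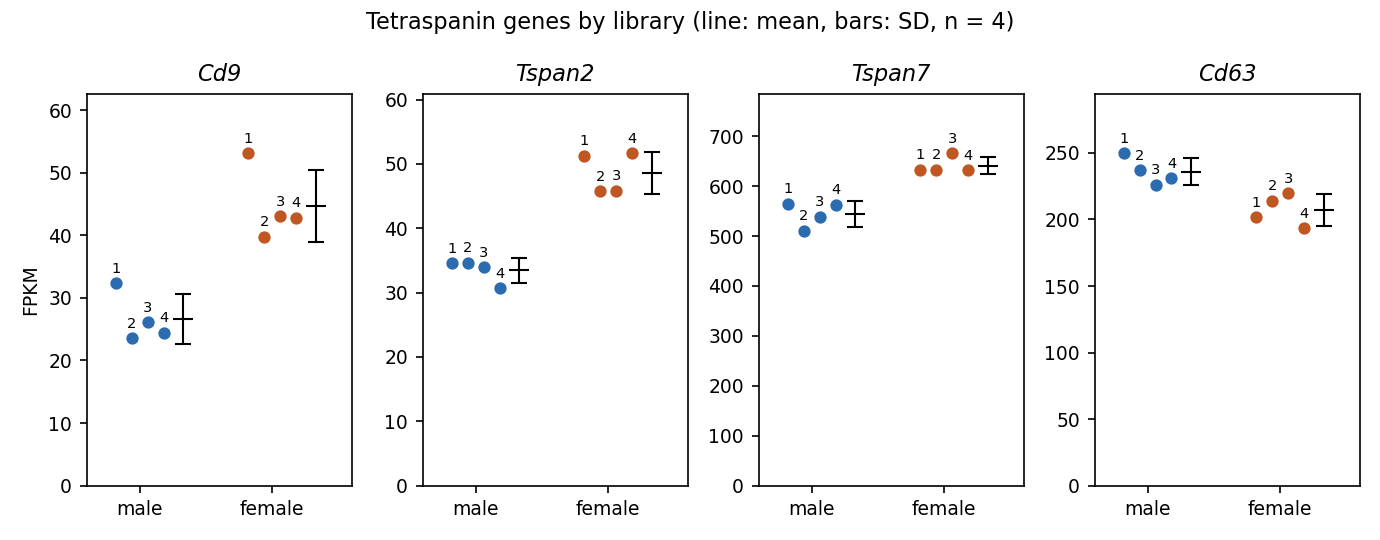
FPKM of 4 tetraspanin genes in each library (points, numbered by replicate), with the mean and SD of 4 libraries beside them and male cultures on the left. Male libraries lie below female ones for Cd9, Tspan2 and Tspan7 and above them for Cd63, which was not called.

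The promoters of the 3 called genes and of Itga8, which came closest to a call, are shown because Cd9, Tspan2 and Tspan7 lay together on the female side and Itga8 on the male side. Each sequence is the 250 bases before the gene start in RefSeq assembly GRCr8, read 5′ to 3′ on the strand of the gene, and capitals mark GGGCGG, a GC box, on either strand.
Cd9, chr4:159975359-159975608 (- strand): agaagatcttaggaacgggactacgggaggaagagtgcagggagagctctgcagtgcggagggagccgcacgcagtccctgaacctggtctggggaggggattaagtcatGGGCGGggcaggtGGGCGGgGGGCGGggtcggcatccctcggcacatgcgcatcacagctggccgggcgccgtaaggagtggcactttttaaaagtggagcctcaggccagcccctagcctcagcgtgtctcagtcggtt
Tspan2, chr2:192866030-192866279 (+ strand): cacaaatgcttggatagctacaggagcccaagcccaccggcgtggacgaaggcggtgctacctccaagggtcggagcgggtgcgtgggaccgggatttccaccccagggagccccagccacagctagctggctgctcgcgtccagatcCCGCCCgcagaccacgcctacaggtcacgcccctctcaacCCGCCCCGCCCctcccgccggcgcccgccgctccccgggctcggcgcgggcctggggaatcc
Tspan7, chrX:14978628-14978877 (- strand): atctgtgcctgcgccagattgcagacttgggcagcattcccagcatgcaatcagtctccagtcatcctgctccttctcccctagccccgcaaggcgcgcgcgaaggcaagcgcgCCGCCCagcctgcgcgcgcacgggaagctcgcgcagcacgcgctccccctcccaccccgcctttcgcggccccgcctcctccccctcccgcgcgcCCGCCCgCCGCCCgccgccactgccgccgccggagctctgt
Itga8, chr17:80410634-80410883 (- strand): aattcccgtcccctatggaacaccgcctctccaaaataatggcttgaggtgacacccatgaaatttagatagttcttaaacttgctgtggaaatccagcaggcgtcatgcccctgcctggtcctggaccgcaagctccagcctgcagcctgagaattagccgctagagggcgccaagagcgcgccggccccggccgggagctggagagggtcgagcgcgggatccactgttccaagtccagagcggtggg
GGGCGG occurred at 3 places in the promoters of Cd9, Tspan2 and Tspan7, counting those that share bases, and at none in that of Itga8. The motif was in 63.6% of the 22 promoters matched to tested members, in 60.0% of 9211 promoters of tested genes and in 30.5% of all 33469 promoters. The motif CAGCTG, an E-box, was in that of Cd9, in 11.6% of promoters of tested genes and in 4007 of all 33469 promoters. ACAAAG and TATAAA, searched on both strands as well, were in none of the 4 promoters. They were in 11.2% and 6.06% of promoters of tested genes, and in 16.3% and 12.9% of all. GC content was 64.0% for Cd9, 72.0% for Tspan2, 73.6% for Tspan7 and 59.6% for Itga8, with a median of 60.8% for tested genes. A match of letters is a description and not evidence of a bound factor.

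Markers of other cells and stages differed in both directions. Microglial markers lay in the same direction as Cd9, Tspan2 and Tspan7, with a median log2 difference of -1.51 over 12 tested genes. The median was -0.38 over 8 OPC markers and -0.03 over 8 oligodendrocyte markers. All 8 OPC differences were negative, from -0.13 for Olig1, not called, to -1.66 for Gpr17 (limma-trend adjusted p = 0.00126). Of the oligodendrocyte markers 4 differences were positive and 4 negative. Myrf and Cnp were called as lower in male cultures, while Mog (0.57) and Mobp (0.54) lay the other way and were not called. The median over 8 tested neuronal markers was 0.63, with 5 differences positive, 3 negative and 4 called as higher in male cultures. In bulk cultures fewer cells of a type and less RNA per cell cannot be told apart, and the part of these cells in the differences of Cd9, Tspan2 and Tspan7 was not tested. Cd53, a tetraspanin of leukocytes outside the symbol rule, stood at 0.569 ± 0.224 FPKM in male and 2.07 ± 0.812 FPKM in female cultures (SD, n = 4 each; limma-trend adjusted p = 0.0431). With a male mean under 1 FPKM, Cd53 reached the level for testing only through its female values. Its call was lost in 12 of 17 alternatives (adjusted p up to 0.137). Among these were no filter, a pseudocount of 0.1, the replicate block and relative depth as a covariate. Leaving out any single library except female 2 or female 3 also ended it.

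The other abundant tetraspanins differed by little. Cd63, a tetraspanin of late endosomes and exosomes, stood at 249.7, 237.2, 226.2 and 230.9 FPKM in male cultures 1 to 4, against 201.6, 214.0, 219.7 and 193.5 FPKM in female cultures 1 to 4. Every male value lay above every female one, and the difference was not past the threshold (log2 difference 0.19, 95% interval 0.05 to 0.33, limma-trend adjusted p = 0.109). It was called as higher in male cultures after rescaling to TPM (adjusted p = 0.0136). Cd81, the second most abundant member, averaged 386 ± 15.65 FPKM in male and 354 ± 21.4 FPKM in female cultures (SD, n = 4 each; log2 difference 0.12, 95% interval -0.01 to 0.26). Tspan3 averaged 264 ± 4.16 FPKM in male and 275 ± 17.1 FPKM in female cultures, with overlapping values (SD, n = 4 each; log2 difference -0.06, 95% interval -0.19 to 0.07). Claudin 11, its partner gene Cldn11, averaged 8.50 ± 1.92 FPKM in male and 8.17 ± 1.67 FPKM in female cultures (SD, n = 4 each). Tspan13 averaged 148 ± 5.23 FPKM in male and 127 ± 9.64 FPKM in female cultures without overlap (SD, n = 4 each; log2 difference 0.22, 95% interval 0.07 to 0.37, limma-trend adjusted p = 0.0862). It was called without female 2 (adjusted p = 0.0463) and after rescaling to TPM (adjusted p = 0.0344). By mean over 8 libraries the order was Tspan7, Cd81, Tspan3, Cd63, Tspan6, Tspan13 and Tspan31. Of neighbours in that order, Tspan6 and Tspan13, and Tspan13 and Tspan31, overlapped in their ranges over libraries.

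The tetraspanins Tspan5, Tspan10, Tspan14, Tspan15, Tspan17 and Tspan33 are known to bind and guide the membrane protease ADAM10. None of the 5 tested was called, and their median log2 difference was -0.05. Tspan5 stood at 33.05, 34.4, 36.0 and 37.1 FPKM in male cultures 1 to 4, against 30.3, 27.5, 28.4 and 32.8 FPKM in female cultures 1 to 4, just without overlap (log2 difference 0.23, 95% interval 0.05 to 0.41, limma-trend adjusted p = 0.125). Tspan33 lay the other way, at 5.74 to 6.62 FPKM in male and 7.19 to 9.45 FPKM in female cultures (log2 difference -0.35, 95% interval -0.61 to -0.08, limma-trend adjusted p = 0.127). Tspan14 (28.1 ± 4.00 in male and 26.4 ± 2.10 FPKM in female cultures), Tspan15 (10.8 ± 2.59 in male and 12.1 ± 2.66 FPKM in female cultures) and Tspan17 (3.24 ± 0.775 in male and 3.45 ± 1.07 FPKM in female cultures) overlapped between the sexes (SD, n = 4 each). Tspan10 was above 0 only in female 3, at 0.244 FPKM. Adam10 itself averaged 38.6 ± 5.52 FPKM in male and 39.5 ± 0.593 FPKM in female cultures (SD, n = 4 each), a log2 difference of -0.04 with a 95% interval of -0.27 to 0.18.

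Of the remaining tested tetraspanins none was called. Cd82, a tetraspanin known as a metastasis suppressor, stood at 2.44, 1.98, 1.58 and 1.53 FPKM in male cultures 1 to 4, against 2.41, 4.99, 3.10 and 3.20 FPKM in female cultures 1 to 4. Male 1 and female 1 overlapped, and the interval of its log2 difference was wide (-1.04 to -0.16, estimate -0.60, limma-trend adjusted p = 0.113). Tspan9 averaged 9.29 ± 0.800 FPKM in male and 6.995 ± 1.19 FPKM in female cultures without overlap (SD, n = 4 each; log2 difference 0.37, limma-trend adjusted p = 0.129). Tspan11, Tspan12, which takes part in Norrin signalling through a Frizzled receptor, and Tspan31 overlapped between the sexes, with log2 differences of -0.21, 0.03 and 0.08. Genes that encode partners of tetraspanins gave no call among 12 tested (median log2 difference 0.01). They include Igsf8, a partner of Cd9 and Cd81, at 53.6 ± 4.45 FPKM in male and 51.0 ± 4.75 FPKM in female cultures (SD, n = 4 each).

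Nearly all of the listed integrin FPKM was held by 4 genes. The most abundant was Itgb1 (ENSRNOG00000010966), which encodes the beta 1 subunit shared by many receptors, followed by Itgav (ENSRNOG00000004912), Itgb8 (ENSRNOG00000006569) and Itga8 (ENSRNOG00000016538). Itgav held 79.9% to 81.6% of the summed FPKM of alpha subunit genes in male and 86.5% to 89.8% in female cultures, and Itga8 held 16.5% to 17.4% in male and 8.57% to 11.3% in female ones. Itgb1 held 74.0% to 85.1% of the summed FPKM of beta subunit genes in male and 67.5% to 75.8% in female cultures. Itgb5, another partner of alpha v, averaged 2.12 ± 0.244 FPKM in male and 2.08 ± 0.372 FPKM in female cultures (SD, n = 4 each). In the order of mean levels the ranges of Itgb1 and Itgav, of Itgav and Itgb8, and of Itgb8 and Itga8 overlapped with the next, while Itga8 and Itgb5 lay apart. These ranges are taken across libraries. Within every single library the order Itgb1, Itgav, Itgb8 and Itga8 held.

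Itgb1 stood at 144, 142, 149 and 149 FPKM in male cultures 1 to 4, against 142, 132, 137 and 144 FPKM in female cultures 1 to 4. The values overlapped, and the log2 difference was 0.07 with a 95% interval of -0.05 to 0.20 (limma-trend adjusted p = 0.522).

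Itga8, whose subunit pairs with beta 1 and binds nephronectin, stood at 13.5, 19.5, 21.95 and 21.5 FPKM in male cultures 1 to 4, against 13.2, 12.7, 13.3 and 11.9 FPKM in female cultures 1 to 4. Male 1 lay just above the highest female library and the other 3 male libraries well above it. The means were 19.1 ± 3.88 in male and 12.8 ± 0.616 FPKM in female cultures (SD, n = 4 each), and the log2 difference of 0.52 ± 0.14 (SE; 95% interval 0.22 to 0.83) missed the threshold (limma-trend adjusted p = 0.0512). It was called as higher in male cultures without male 1 (adjusted p = 0.00415) and without both male 1 and female 3 (adjusted p = 0.00574). Over 18 alternatives its adjusted p was 0.00415 to 0.146. The nephronectin gene Npnt was below the level for testing, at 0.506, 0.457, 0.987 and 0.908 FPKM in male cultures 1 to 4, against 0, 0, 0.386 and 0.474 FPKM in female cultures 1 to 4. Its zeros fell in female 1 and female 2, the libraries of lowest relative depth (0.3033 and 0.3665). Of 8 tested neuronal markers Gad1, Gad2, Stmn2 and Syt1 were called as higher in male cultures, and Snap25, Dcx, Rbfox3 and Tubb3 were not called, with log2 differences of 0.65, -0.21, -0.18 and -0.06. Their part in the level of Itga8 was not tested.

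Itgav stood at 63.4, 96.5, 106.4 and 100.2 FPKM in male cultures 1 to 4, against 138, 124, 102 and 124 FPKM in female cultures 1 to 4. Male 1 was the lowest library and female 3 the lowest of its group, below male 3. Its log2 difference was -0.43 ± 0.16 (SE; 95% interval -0.77 to -0.08; limma-trend adjusted p = 0.147). Without male 1 and female 3 it was called as lower in male cultures (adjusted p = 0.0200), and without either alone it was not. Its log2 difference was -0.34 without both and -0.26 without male 1 alone. With relative depth as a covariate the difference of Itgav was -0.27 (limma-trend adjusted p = 0.3375). Itgb8, whose subunit pairs with alpha v to activate latent TGF-beta, stood at 21.8, 40.8, 48.0 and 49.2 FPKM in male cultures 1 to 4, against 64.4, 52.6, 41.2 and 61.9 FPKM in female cultures 1 to 4. Male 1 and female 3 were again the lowest of their groups, and the sexes overlapped (log2 difference -0.50, 95% interval -1.09 to 0.09, limma-trend adjusted p = 0.319). Without both libraries the log2 difference of Itgb8 was -0.37 (adjusted p = 0.0704), and without male 1 alone it was -0.24 (adjusted p = 0.394). With relative depth as a covariate the difference of Itgb8 was -0.26 (limma-trend adjusted p = 0.626). Tgfb1 was low, at 0.585 ± 0.268 FPKM in male and 1.55 ± 0.644 FPKM in female cultures (SD, n = 4 each), and was not called (limma-trend adjusted p = 0.136).

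**Figure D4:**
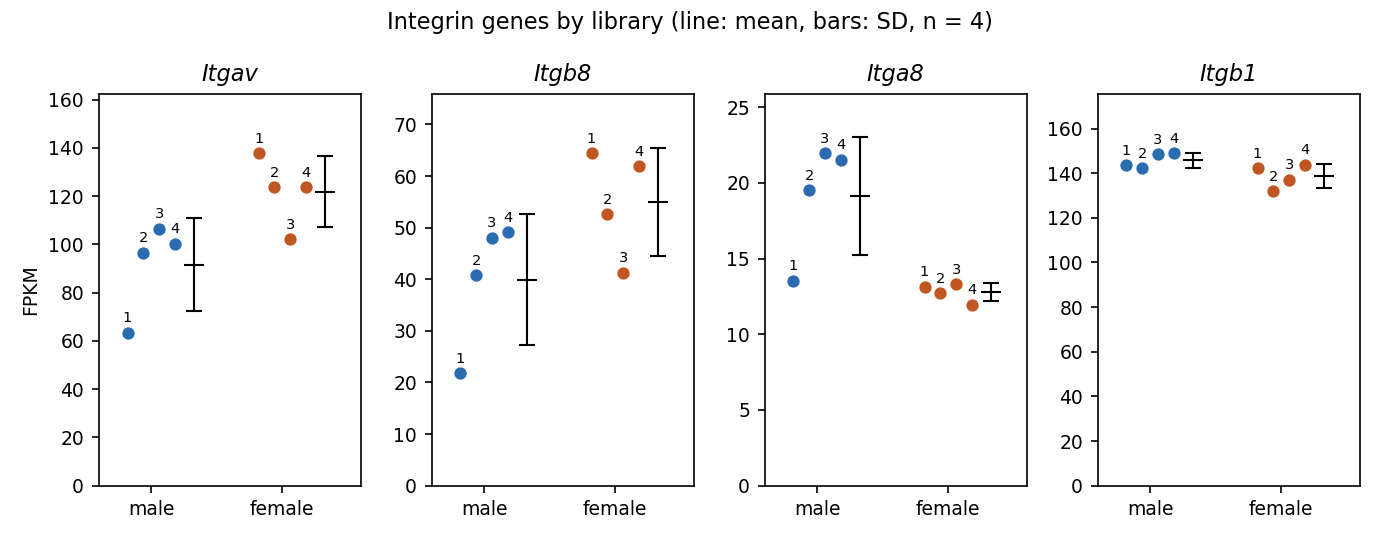
FPKM of the 4 abundant integrin genes in each library (points, numbered by replicate), with the mean and SD of 4 libraries beside them and male cultures on the left. Male 1 is the lowest male library for Itgav, Itgb8 and Itga8, at 63.4, 21.8 and 13.5 FPKM.

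Ratios within a library do not depend on how libraries are scaled. Itga8 was 21.4%, 20.2%, 20.6% and 21.5% of the Itgav level in male cultures 1 to 4, against 9.55%, 10.3%, 13.0% and 9.66% in female cultures 1 to 4. Male 1, low for both genes, was level with the other male libraries in this ratio (means 20.9% ± 0.607 in male and 10.6% ± 1.63 in female cultures, SD, n = 4 each; p = 0.0286 by an exact permutation test on both sides, the lowest value that 70 assignments allow; 0.0357 adjusted over 5 ratios). The same p was given for Itgav over Itgb1 (62.7% ± 12.5 in male and 87.8% ± 9.91 in female cultures), Cd9 over Cd81 (6.90% ± 0.952 in male and 12.7% ± 2.54 in female cultures) and Tspan2 over Tspan3 (12.65% ± 0.611 in male and 17.7% ± 1.89 in female cultures). The level of Itgb8 relative to Itgav overlapped, at 34.3% to 49.1% in male against 40.3% to 50.1% in female cultures (p = 0.6 by the same exact test). The 5 ratios were chosen after the values of their genes were seen. Their p-values therefore restate differences already seen and are no separate support, and the adjustment covers only these 5.

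The remaining integrin genes were at or below about 1 FPKM and were not tested. Itga6, the alpha subunit of the laminin receptors of oligodendrocytes, stood at 0.798, 0.628, 1.13 and 0.811 FPKM in male cultures 1 to 4, against 0.914, 1.23, 1.13 and 1.17 FPKM in female cultures 1 to 4, with overlap. Itgb3, another partner of alpha v, was at 0.464 to 1.17 FPKM in male and 0.353 to 0.969 FPKM in female cultures. Itga3, Itga5, Itga7 and Itga9 had means of 0.150 to 0.602 FPKM over all libraries. Itgb2, the beta subunit of leukocyte integrins, was at 0.269, 0.243, 0.175 and 0.121 FPKM in male cultures 1 to 4, against 1.33, 0.550, 0.480 and 0.504 FPKM in female cultures 1 to 4. Its values did not overlap, and Itgal, which encodes an alpha subunit that pairs with it, was at 0.0832 to 0.241 FPKM in male and 0.505 to 1.39 FPKM in female cultures. Both lay in the direction of the microglial markers, whose part was not tested. Itga1, Itga11, Itgb4 and Itgb7 were above 0 in at most 3 libraries, as were Tspan1 and Tspan8, while Tspan18 was above 0 in 7.

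Itga2, Itga4, Itga10, Itgb6, Cd151, Tspan4 and Tspan32 were listed at 0 in all 8 libraries. For Cd151, a laminin receptor partner, and Tspan4 the zeros extend to their neighbours. In the RefSeq table of GRCr8 both lie in a run with Rplp2, Pnpla2, Cracr2b, Polr2l and Chid1. Of these Pnpla2, Cracr2b and Chid1 were also listed at 0 throughout, and Polr2l, which encodes an RNA polymerase subunit that every cell uses, was above 0 only in female 3, at 0.251 FPKM. Rplp2, a ribosomal protein gene, showed 0, 1.88, 0 and 3.72 FPKM in male cultures 1 to 4, against 3.51, 8.59, 0 and 0 FPKM in female cultures 1 to 4. Ap2a2, farther along the same stretch, averaged 91.7 FPKM in male and 90.6 FPKM in female cultures. The zeros of Cd151 and Tspan4 are therefore given only as listed. Neighbours of Itga2, Itga4, Itga10, Itgb6 and Tspan32 were not looked at, and the zeros of these genes are likewise given only as listed.

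Downstream of integrins, genes of the adhesion machinery that links receptors to actin and to kinases included several that were lower in male cultures. Of 37 tested, 6 were called as lower and 1 as higher in male cultures (18.9% called, beside 6.04% over all genes), with a median log2 difference of 0.03. Kank1, which encodes a talin-binding protein at the rim of adhesions, stood at 10.8, 8.16, 7.58 and 9.60 FPKM in male cultures 1 to 4, against 23.3, 19.3, 16.6 and 21.5 FPKM in female cultures 1 to 4 (log2 difference -1.08 ± 0.13, SE; limma-trend adjusted p = 0.00175). All male values lay below all female ones. Lims2, a partner of integrin-linked kinase, averaged 2.72 ± 0.480 FPKM in male and 6.77 ± 0.383 FPKM in female cultures (SD, n = 4 each; limma-trend adjusted p = 0.00203). The tensin gene Tns3 averaged 14.8 ± 0.687 FPKM in male and 31.0 ± 7.40 FPKM in female cultures (SD, n = 4 each; limma-trend adjusted p = 0.00424), and Tns2 5.76 ± 0.907 FPKM in male and 10.3 ± 2.09 FPKM in female ones. Pxn, the gene of the scaffold paxillin, averaged 14.97 ± 1.03 FPKM in male and 20.8 ± 1.67 FPKM in female cultures. The gene called as higher in male cultures was Rap1b, a small GTPase that activates integrins, at 155 ± 16.4 FPKM in male and 119 ± 5.31 FPKM in female cultures (SD, n = 4 each; log2 difference 0.38 ± 0.08, SE; limma-trend adjusted p = 0.0212). Kank1, Lims2 and Tns3 kept their calls without any single library, while Tns2 (without male 2, 3 or 4 or female 4), Pxn (without male 2, male 3 or female 1) and Rap1b (without male 2, 3 or 4 or female 1 or 4) lost theirs, with adjusted p of at most 0.0735. The sixth gene lower in male cultures was Rac1, named outside the rule to complete the count (log2 difference -0.21, limma-trend adjusted p = 0.0421). Rac1 was not called when male 2, 3 or 4 or female 2, 3 or 4 was left out. Rescaling to TPM ended the calls of Pxn and Rac1, and relative depth as a covariate those of Tns2 and Pxn.

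Among the other adhesion genes tested, 3 were picked for their known roles after their values were seen, and none of the 3 was called. Fermt2, which encodes the integrin activator kindlin 2, averaged 53.7 ± 2.92 FPKM in male and 53.3 ± 2.48 FPKM in female cultures (SD, n = 4 each), a log2 difference of 0.01 with a 95% interval of -0.15 to 0.16. The talin gene Tln1 stood at 11.8, 12.3, 13.6 and 12.8 FPKM in male cultures 1 to 4, against 19.8, 18.6, 13.9 and 17.8 FPKM in female cultures 1 to 4 (limma-trend adjusted p = 0.0508). Fyn, the kinase that acts downstream of integrins in oligodendrocytes, averaged 173 ± 6.99 FPKM in male and 204 ± 11.2 FPKM in female cultures (SD, n = 4 each; limma-trend adjusted p = 0.0503).

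**Figure D5:**
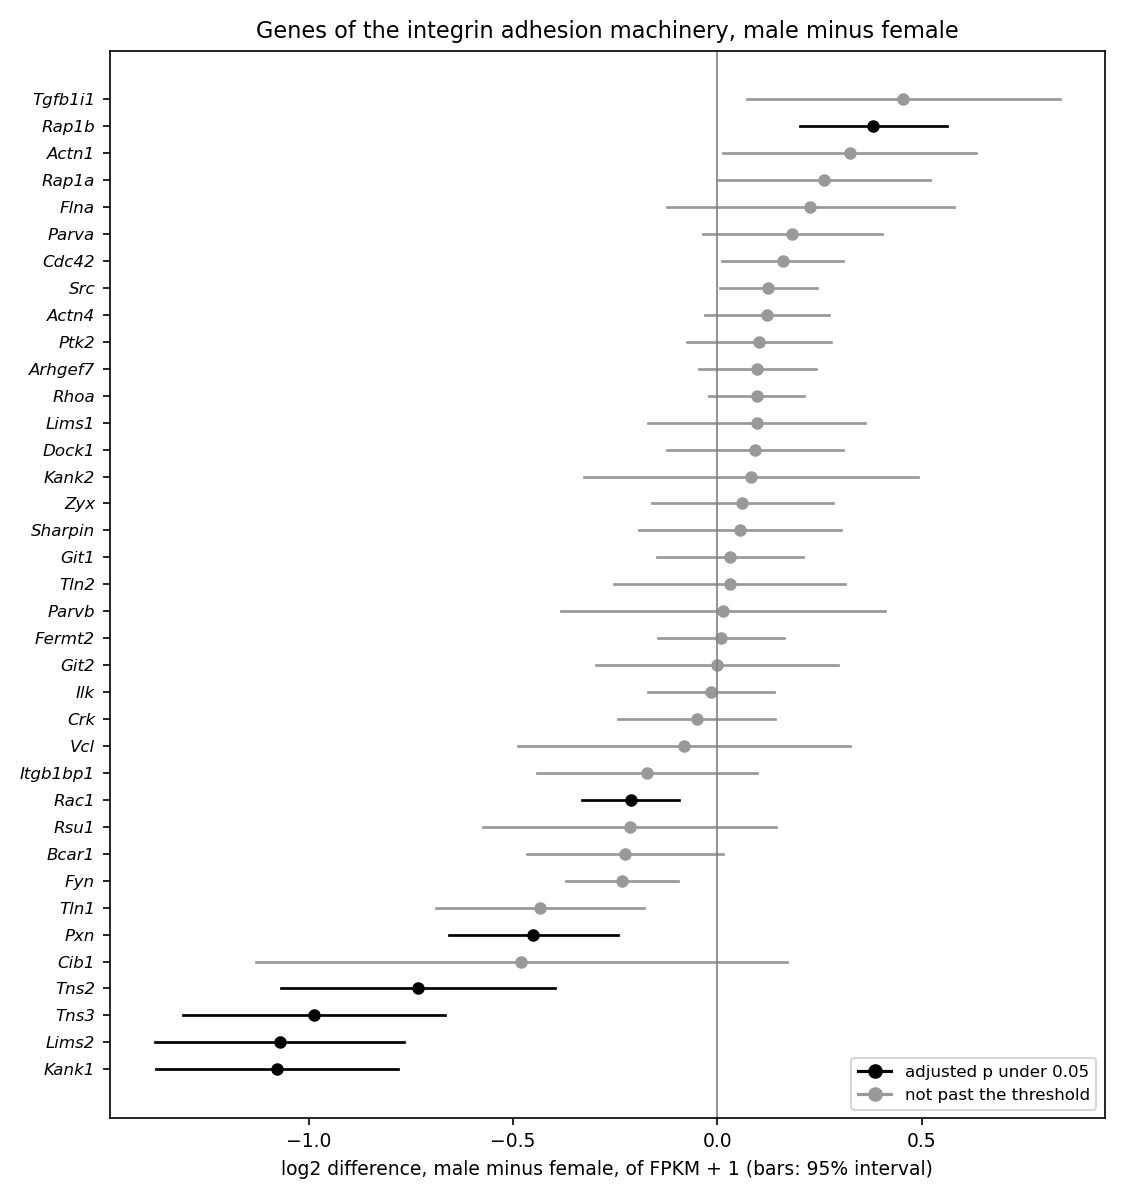
Log2 difference, male minus female, of FPKM + 1 with its 95% interval for the 37 tested genes of the adhesion machinery, in black where the adjusted p is under 0.05. Of the 7 black points, 6 lie left of 0, led by Kank1 and Lims2, and Rap1b lies to the right.

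Genes of integrin ligands were mostly low, and 13 of 42 in the table were tested. Of these 2 were called as lower and 1 as higher in male cultures (23.1%, beside 6.04% over all genes; median log2 difference -0.14). Tnr, the gene of the matrix protein tenascin R, stood at 4.81, 4.89, 6.53 and 6.62 FPKM in male cultures 1 to 4, against 25.8, 17.1, 9.25 and 19.0 FPKM in female cultures 1 to 4 (log2 difference -1.42 ± 0.25, SE; limma-trend adjusted p = 0.0111). Female 3 was the lowest female library and still above the male ones. Adam9, which encodes a membrane metalloprotease that binds integrins, averaged 48.2 ± 3.01 FPKM in male and 64.1 ± 5.88 FPKM in female cultures (SD, n = 4 each; limma-trend adjusted p = 0.0182), a call that was lost under some alternatives, among them leaving out male 3 or female 4 and rescaling to TPM (adjusted p up to 0.0959). Thbs4, a thrombospondin gene, averaged 4.50 ± 0.319 FPKM in male and 2.16 ± 0.255 FPKM in female cultures (SD, n = 4 each; log2 difference 0.80 ± 0.14, SE; limma-trend adjusted p = 0.00836). Mfge8, a secreted ligand of alpha v integrins, was the most abundant ligand gene, at 390 ± 39.0 FPKM in male and 430 ± 13.8 FPKM in female cultures (SD, n = 4 each; limma-trend adjusted p = 0.282). The fibronectin gene Fn1 and the osteopontin gene Spp1 had means of 0.474 and 0.517 FPKM over all libraries, and the vitronectin gene Vtn was above 0 only in male 4. The laminin genes Lama4 and Lamc1 averaged 18.1 ± 1.35 and 27.1 ± 2.73 FPKM in male cultures and 18.3 ± 1.90 and 33.5 ± 5.03 FPKM in female ones (SD, n = 4 each), and neither was called.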

How the data were processed

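RNA of 8 rat OPC cultures was sequenced on an Illumina MiSeq from strand-specific libraries, per the labels' protocols. The authors deposited FPKM values per gene and library, per the file headers. Per the submitters' processing notes, FastQC and Trimmomatic were used. Aligner, build, annotation and strand setting: not given in the sources used here. The FPKM table holds no counts, so no counting intervals could be given, and a rise of abundant genes lowers all others. Values were taken as log2(FPKM + 1), which understates changes of low genes, for the 11263 genes whose mean reached 1 FPKM. They were tested with limma-trend with robust moderation (limma 3.58.1, R 4.3.3) and Benjamini-Hochberg adjustment over all tested genes, at 0.05. The test was checked only on simulated data with independent noise and with shifts larger than the differences of the members. The check therefore cannot show how the test behaves for smaller differences or for deviations that libraries share. Differences are male minus female. Sex and replicate come from the titles. Relative depth came from the commonest ratio of low values to those of male 1. Named are called members, members fixed for known roles in the lineage, the most abundant ones, and up to 6 called genes per list with the smallest p. Other genes named were chosen after their values were seen. The members and lists were chosen with earlier results of these data known. Alternatives changed the pseudocount (0.1, 5), filter, scaling (TPM, quantile), moderation, block, depth term and libraries.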

Additional observations from a re-analysis of the deposited data

Results flagged for a closer look

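Among the 46 groups of 4 libraries of the tested members, 2 held a library far from the other 3, where chance gives about 1 in 20 groups. Tspan2 was 30.65 FPKM in male 4, against 33.97 to 34.62 FPKM in the other male libraries. Tspan7 was 665.7 FPKM in female 3, against 631.7 to 633.2 FPKM in the other female libraries.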

How the results depend on the processing

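Cd9 and Tspan2 kept their direction and their call in all 18 alternatives. The number of called members was 3, and it was 5 after rescaling to TPM (Cd9 and Tspan2 lower, and Cd63, Itga8 and Tspan13 higher in male cultures) and 5 without male 1 and female 3 (Cd9, Tspan2, Tspan7 and Itgav lower and Itga8 higher), and 2 to 4 with 1 library left out. Called integrins numbered 0 with the settings reported, 1 at a mean of at least 5 FPKM, 1 after rescaling to TPM, 1 after quantile normalization, 2 without male 1 and female 3, and 0 to 1 with 1 library left out. Called tetraspanins stayed at 2 to 3 with 1 library left out. Called genes of the adhesion machinery numbered 7, and 3 to 8 with 1 library left out. Those were 3 without male 2 or male 3 and 4 without male 4 or female 4. Called tetraspanin partners numbered 0, and 1 (Slc3a2) after rescaling to TPM. Over all genes the count of 680 became 367 with relative depth as a covariate, and 296 to 808 with 1 library left out. Leaving out male 2 gave 315, male 3 296, male 4 359, female 1 411 and female 4 318. With the replicate number as a block it was 397, and Tspan7 (adjusted p = 0.118), Pxn, Rac1 and Adam9 were not called. Same-numbered libraries deviated with r of -0.146 to 0.134, which cannot show whether they shared a litter or a preparation. Signs turned only for differences near 0 that were never called. Tspan17 was 0.0094 and Tspan3 0.024 after rescaling to TPM. Tspan31 was -0.052 with relative depth as a covariate. Itgb5 was -0.056 and Tspan12 -0.053 without male 1 and female 3. With 1 library left out Itgb5 ranged over -0.056 to 0.087, Tspan12 over -0.077 to 0.094 and Tspan17 over -0.224 to 0.068. The cause of these changes was not tested. The shallow female libraries limit what can be said of members under about 1 FPKM.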
